A study of Mus musculus with 4 samples.

Results

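Nitric oxide, endothelin, angiotensin and natriuretic peptide genes were followed in the aorta of female mice at 6 weeks of age. The 10 genes listed were Nos3, Gucy1b3, Edn1, Ednra, Ednrb, Agt, Ace, Agtr1a, Npr1 and Npr3, and every probe set of a 1-colour Affymetrix array whose platform annotation names exactly 1 of them was taken. This gave 13 of 22626 probe sets, for 8 of the 10 genes. Gucy1b3 appears under its current symbol Gucy1b1, and no probe set is named for Ednra or Agtr1a here, so these receptors were not analysed. A probe set is a group of short oligonucleotides that together report 1 transcript.

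There were 4 groups with 1 array each: C3H/HeJ apoE-/- mice on Western diet, C3H/HeJ apoE-/- mice on chow, C57BL/6 apoE-/- mice on Western diet and C57BL/6 apoE-/- mice on chow (C3H and C57BL/6 below). All 4 groups lack apolipoprotein E, the protein that clears lipoprotein remnants, and per the labels are hyperlipidemic, extremely so on Western diet. The Western groups ate that diet from week 4, for 2 weeks. The comparisons ask how aortic expression in a strain known for small atherosclerotic lesions (C3H) compares with one known for large ones (C57BL/6), and how each responds to diet. No group has a replicate, the labels do not say whether animals were pooled for an array, and no difference within a pair of arrays was tested.

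Nitric oxide made in endothelial cells diffuses to smooth muscle, where it switches on soluble guanylate cyclase, and the cyclic GMP formed relaxes the vessel. Natriuretic peptides raise cyclic GMP through a receptor of their own in the cell membrane. Endothelin 1 and angiotensin II act the opposite way, as constrictors of smooth muscle, and the endothelin B receptor on endothelial cells in turn promotes nitric oxide release. These systems set the tone of the aorta and are known to be disturbed in hypercholesterolemia.

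Signals are quantile-normalized linear intensities, and 83.6, the 40th percentile of all values, was used as a floor under which a signal is only a bound. Where 1 array of a pair is that dim, it was set to the floor, and the fold reads "at least". Of the 13 probe sets, 6 were above the floor on all 4 arrays (1 each for Nos3, Gucy1b1, Edn1, Ednrb, Ace and Npr3), 5 on 3 arrays, 1 on 1 array and 1 on none. The arrays carried smooth muscle markers (12 of 12 above the floor on every array) and endothelial markers (12 of 14), as a vessel does. They also carried brown adipocyte markers (7 of 7 on every array). Of 10 heart muscle markers, 8 were at or under the floor on each C3H array and 0 on each C57BL/6 array. The part of these tissues in the strain differences was not tested. Apoe was dim on every array, under the floor (55.5 on C3H Western, 16.1 on C3H chow, 65.3 on C57BL/6 Western and 19.1 on C57BL/6 chow), although where its probe set lies relative to the disrupted part is unknown here. The C3H chow array had the highest actin 3'/5' signal ratio, a sign of RNA quality, at 2.28 against 1.63 to 1.83 on the others, while its Gapdh ratio of 1.19 lay within their range of 1.03 to 1.28. It enters the strain comparison on chow and the diet comparison in C3H, and neither can be made without it.

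**Figure D1:**
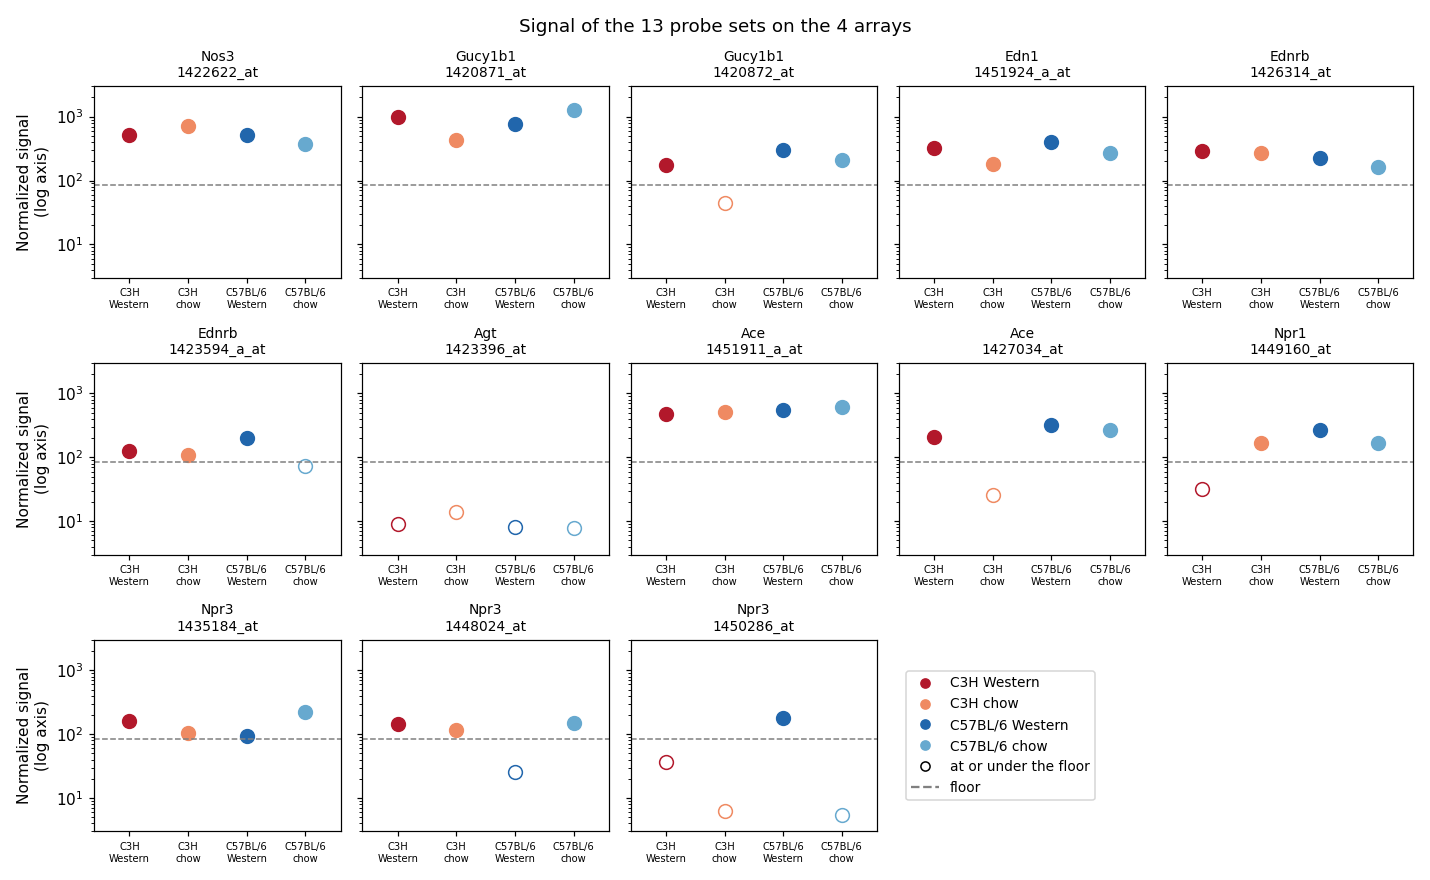
Normalized signal (log axis) of each of the 13 probe sets on the 4 arrays, 1 point per array, with the floor of 83.6 as a dashed line and open points at or under it. Nos3 is highest on C3H chow, Edn1 is higher on both Western points than on the chow point of the same strain, and Agt lies under the floor throughout.

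The promoters below, the 250 bases before a transcript start in RefSeq (GRCm38.p6), are shown for Ace and Gucy1b1 and for Gucy1a1, which is not among the 10 listed genes. Ace has 2 starts in that table and 2 probe sets that differ in pattern. Gucy1b1 and Gucy1a1 encode the partner subunits of soluble guanylate cyclase and are neighbours in the GRCm38.p6 gene order. Over the arrays the brighter Gucy1b1 set had a pattern similar to Gucy1a1, while the dimmer Gucy1b1 set was highest on C57BL/6 Western. Capitals mark the letters TATAAA, known as the TATA box. They also mark CCAAT, the box of that name, and last the GC box, which reads GGGCGG. Both strands were searched for each.
Ace first start, chr11:105967698-105967947, plus strand: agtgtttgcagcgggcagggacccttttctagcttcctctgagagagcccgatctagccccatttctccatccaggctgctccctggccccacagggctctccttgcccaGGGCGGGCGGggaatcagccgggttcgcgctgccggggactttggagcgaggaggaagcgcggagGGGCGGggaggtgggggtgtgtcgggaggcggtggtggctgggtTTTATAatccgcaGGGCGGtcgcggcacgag
Ace second start, chr11:105974939-105975188, plus strand: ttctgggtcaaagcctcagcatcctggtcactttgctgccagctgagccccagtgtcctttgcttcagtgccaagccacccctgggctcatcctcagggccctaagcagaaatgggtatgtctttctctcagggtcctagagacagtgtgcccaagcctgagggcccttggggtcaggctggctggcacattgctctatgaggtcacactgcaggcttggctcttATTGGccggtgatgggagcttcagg
Gucy1b1, chr3:82074712-82074961, minus strand: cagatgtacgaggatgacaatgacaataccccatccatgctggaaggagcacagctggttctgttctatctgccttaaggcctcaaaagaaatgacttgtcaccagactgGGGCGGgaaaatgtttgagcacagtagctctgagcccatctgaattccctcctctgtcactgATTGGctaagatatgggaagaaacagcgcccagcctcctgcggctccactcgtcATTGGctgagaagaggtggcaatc
Gucy1a1, upstream of its 2 starts in the table, chr3:82145651-82145900, minus strand: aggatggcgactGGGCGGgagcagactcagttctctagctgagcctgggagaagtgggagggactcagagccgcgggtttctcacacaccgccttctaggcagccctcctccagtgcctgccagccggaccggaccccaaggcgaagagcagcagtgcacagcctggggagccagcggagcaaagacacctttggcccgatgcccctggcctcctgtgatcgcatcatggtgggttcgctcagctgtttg
The first Ace start had a TATA box, on the opposite strand, 31 bases before it and 4 GC boxes, 2 of them overlapping. The second start, which lies inside the gene, had 1 CCAAT box and none of the others. Gucy1b1 had 2 CCAAT boxes and 1 GC box, and the Gucy1a1 window had 1 GC box only. Neither Gucy1 window nor either Ace window held a CArG box, the element bound by serum response factor in smooth muscle genes. Of 32851 promoters of this length, 12.4% held the TATA letters, 33.8% the CCAAT letters, 32.7% the GC box letters and 1.47% a CArG box. The sequence is that of the C57BL/6J reference. Which transcript each Ace probe set reads is unknown here, and a match of letters is a description only.

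Nos3 encodes the endothelial nitric oxide synthase. Its signal was 523.8 on C3H Western, 713.4 on C3H chow, 510.5 on C57BL/6 Western and 375.1 on C57BL/6 chow. The C3H chow array was the highest and the C57BL/6 chow array the lowest, while the Western arrays of both strains were almost level. On chow Nos3 was thus 1.90-fold higher in C3H (log2 0.93), against 1.03-fold on Western diet (log2 0.04). Western diet went with a 1.36-fold lower signal in C3H (log2 -0.45) and a 1.36-fold higher one in C57BL/6 (log2 0.44). A difference between the responses at least as large as that of Nos3 (log2 -0.89) was seen in 30.6% of the 8740 probe sets that exceeded the floor on every array.

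Endothelial markers, when summed, stood in the same order as Nos3 over the arrays, although single markers differed. Their summed signal over 14 genes was 11270 on C3H Western, 13000 on C3H chow, 10671 on C57BL/6 Western and 9616 on C57BL/6 chow. Of 13 endothelial genes measured on both chow arrays, 9 were higher in C3H and 4 lower, Pecam1 and Vwf among the lower, with a median log2 difference of 0.43. By 2-fold or more, 3 were higher in C3H and 0 lower. Among all probe sets measured on both chow arrays, 8.2% were 2-fold higher in C3H and 8.94% lower. All 14 were above the floor on C3H chow and on C57BL/6 Western, while Robo4 (11.5) was under it on C3H Western and Tie1 (60.2) on C57BL/6 chow. Fat markers were also highest on C3H chow and lowest on C57BL/6 chow, with summed signals of 8 adipocyte genes of 76965 on C3H Western, 110480 on C3H chow, 76725 on C57BL/6 Western and 58908 on C57BL/6 chow. The 7 brown adipocyte genes summed to 57606 on C3H Western, 85053 on C3H chow, 49898 on C57BL/6 Western and 43127 on C57BL/6 chow, and 5 of 7 were higher in C3H by 2-fold or more on chow (median log2 1.23). The part of these cell types in the Nos3 values was not tested, and in such whole-tissue RNA more cells of a type and more RNA per cell cannot be told apart.

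Gucy1b1, the beta 1 subunit of soluble guanylate cyclase and so of the nitric oxide receptor, had the opposite pattern on chow. Its brighter probe set gave 974.1 on C3H Western, 430.0 on C3H chow, 768.8 on C57BL/6 Western and 1283 on C57BL/6 chow. C3H chow was the lowest array and C57BL/6 chow the highest. Gucy1b1 was 2.98-fold lower in C3H on chow (log2 -1.58) and 1.27-fold higher on Western diet (log2 0.34). Western diet went with a 2.27-fold higher signal in C3H (log2 1.18) and a 1.67-fold lower one in C57BL/6 (log2 -0.74). Of the 8740 probe sets, 3.83% had responses that differed this much between the strains (log2 1.92 for Gucy1b1), and this difference was not tested.

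The second Gucy1b1 probe set shared the low C3H chow value but not the response of C57BL/6. It gave 173.4 on C3H Western, 43.9 on C3H chow, which is under the floor, 303.8 on C57BL/6 Western and 211.1 on C57BL/6 chow. On chow it was lower in C3H by at least 2.53-fold, and Western diet went with an at least 2.07-fold higher signal in C3H. In C57BL/6 it was 1.44-fold higher with Western diet (log2 0.52), against the lower value of the brighter set, and on Western diet it was 1.75-fold lower in C3H (log2 -0.81). The low C3H chow signal is therefore common to both sets, and the C57BL/6 diet response and the strain difference on Western diet are not.

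Gucy1a1, which encodes the alpha 1 subunit that pairs with Gucy1b1, was singled out after its values were seen. Its brighter probe set gave 485.8 on C3H Western, 60.6 on C3H chow (under the floor), 564.3 on C57BL/6 Western and 876.8 on C57BL/6 chow. The other gave 347.0 on C3H Western, 197.9 on C3H chow, 346.9 on C57BL/6 Western and 607.9 on C57BL/6 chow. Both sets were lowest on C3H chow and highest on C57BL/6 chow, as was the brighter Gucy1b1 set. On chow Gucy1a1 was lower in C3H by at least 10.5-fold and, by the other set, by log2 -1.62.

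Smooth muscle and fibroblast markers had the same extremes. Summed over 12 genes they gave 80276 on C3H Western, 49946 on C3H chow, 83582 on C57BL/6 Western and 114709 on C57BL/6 chow, and on chow 7 of 12 were lower in C3H by 2-fold or more (median log2 -1.10). No smooth muscle gene was at or under the floor on any array. The 10 fibroblast genes moved further, with 8 of 9 measured on chow at least 2-fold lower in C3H (median log2 -1.64), and their summed signals are given with Npr3. Among all probe sets measured on both chow arrays, 8.94% were at least 2-fold lower in C3H. The part of either list in the guanylate cyclase values was not tested.

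Edn1 encodes the precursor of endothelin 1, and it was higher on Western diet than on chow in both strains. The signals were 328.5 on C3H Western, 184.6 on C3H chow, 404.3 on C57BL/6 Western and 273.4 on C57BL/6 chow. Both Western values exceeded both chow values. The Western signal was 1.78-fold higher in C3H (log2 0.83) and 1.48-fold higher in C57BL/6 (log2 0.56), and 2.44% of the 8740 probe sets were at least log2 0.56 higher in both strains. C3H was lower than C57BL/6 on each diet, by 1.48-fold on chow (log2 -0.57) and 1.23-fold on Western diet (log2 -0.30). In the additive limma fit the diet effect was log2 0.70 with a standard error of 0.48 and an adjusted p of 1.0, so it did not pass.

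For scale, probe sets of the same gene disagreed by a pooled SD of log2 0.57 for diet in C3H and 0.48 in C57BL/6 (1675 genes), which is of the size of the Edn1 differences. Markers of macrophages and other leukocytes were also higher on the Western arrays, with summed signals of 10 genes of 6199 on C3H Western, 3050 on C3H chow, 4609 on C57BL/6 Western and 3390 on C57BL/6 chow. Immediate early genes, a sign of tissue handling, ran the other way within each strain (13945 on C3H Western, 23027 on C3H chow, 6521 on C57BL/6 Western and 12969 on C57BL/6 chow, summed over 14 genes). The part of either list in the Edn1 values was not tested.

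Ednrb encodes the endothelin B receptor. Its brighter probe set gave 293.9 on C3H Western, 266.5 on C3H chow, 223.4 on C57BL/6 Western and 164.1 on C57BL/6 chow. Both C3H arrays lay above both C57BL/6 arrays, by 1.62-fold on chow (log2 0.70) and 1.32-fold on Western diet (log2 0.40). Diet differences were smaller, at log2 0.14 in C3H and 0.45 in C57BL/6. The dimmer set gave 124.7 on C3H Western, 108.7 on C3H chow, 199.6 on C57BL/6 Western and 72.8 on C57BL/6 chow, the last under the floor. There C57BL/6 Western was the highest array, so this set was 1.60-fold lower in C3H on Western diet (log2 -0.68), against the brighter set, and at least 2.39-fold higher with Western diet in C57BL/6. Both sets placed Western above chow in each strain and C3H above C57BL/6 on chow.

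**Figure D2:**
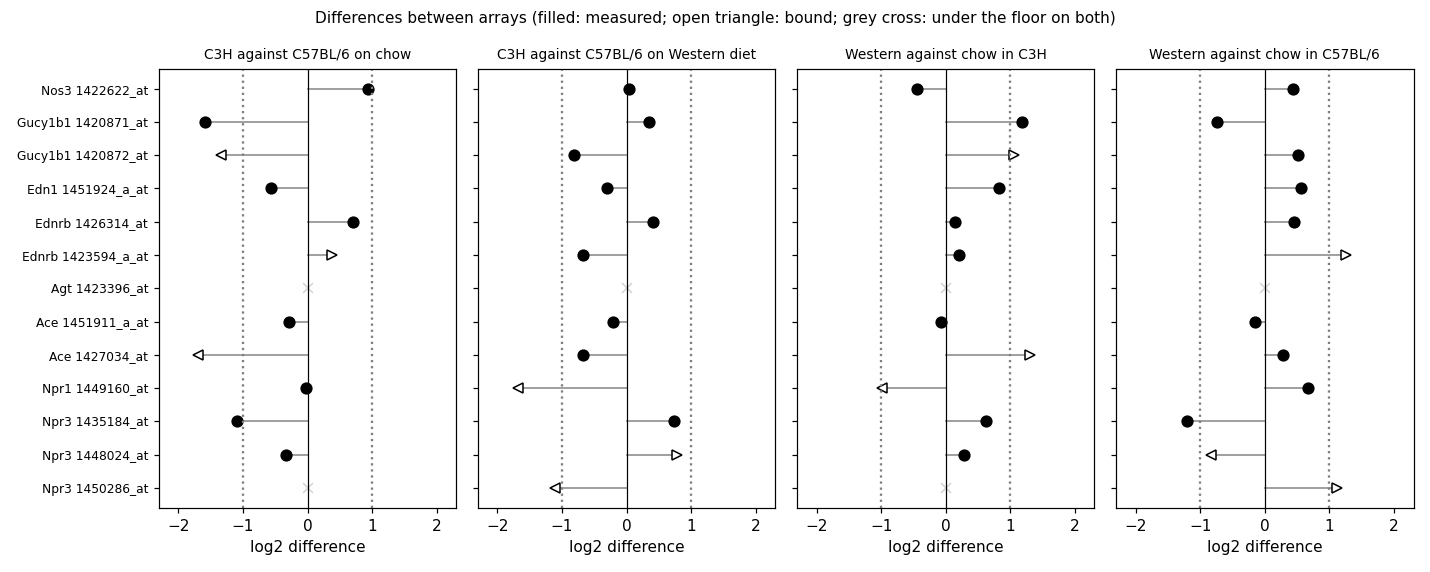
Log2 difference of each probe set in the 4 comparisons, as C3H minus C57BL/6 and as Western minus chow, with dotted lines at 2-fold. Filled points are measured on both arrays, open triangles are bounds against the floor, and grey crosses are under the floor on both. Edn1 lies right of 0 in both diet panels (log2 0.83 and 0.56), and the brighter Gucy1b1 set lies on opposite sides of it (log2 1.18 and -0.74).

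Agt encodes angiotensinogen, which renin cleaves to angiotensin I, and its 1 probe set lay under the floor on every array. It gave 9.06 on C3H Western, 14.0 on C3H chow, 7.99 on C57BL/6 Western and 7.89 on C57BL/6 chow, and no fold is given. Ace, the enzyme that turns angiotensin I into angiotensin II, was the steadiest gene above the floor by its brighter probe set. This set gave 477.3 on C3H Western, 504.1 on C3H chow, 554.0 on C57BL/6 Western and 618.3 on C57BL/6 chow, a range of 1.30-fold. C3H was lower on chow by log2 -0.29 and on Western diet by log2 -0.21.

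The other Ace probe set gave 205.5 on C3H Western, 25.4 on C3H chow, 326.7 on C57BL/6 Western and 269.3 on C57BL/6 chow. It was under the floor on C3H chow only. On chow it was lower in C3H by at least 3.22-fold, and with Western diet it was at least 2.46-fold higher in C3H, where the brighter set differed by 1.23-fold and 1.06-fold. On Western diet it was 1.59-fold lower in C3H (log2 -0.67). Both sets placed C3H under C57BL/6 on each diet. With the dim signal taken as measured, this set had the lowest strain p of all 11 probe sets in the limma fit, unadjusted p = 0.0213 and adjusted p = 0.75.

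Npr1 encodes the membrane guanylate cyclase that is the receptor of atrial natriuretic peptide. It gave 32.3 on C3H Western, 166.6 on C3H chow, 268.6 on C57BL/6 Western and 170.5 on C57BL/6 chow. The chow arrays were level (log2 -0.03), C57BL/6 Western was the highest, and C3H Western alone was under the floor. On Western diet Npr1 was lower in C3H by at least 3.21-fold, and Western diet went with an at least 1.99-fold lower signal in C3H, against 1.58-fold higher in C57BL/6 (log2 0.66). These values rest on a single probe set and on 1 dim array.

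Npr3 encodes the clearance receptor, which removes natriuretic peptides from the circulation, and its 3 probe sets differed. The brightest gave 158.3 on C3H Western, 102.6 on C3H chow, 94.8 on C57BL/6 Western and 218.6 on C57BL/6 chow. C57BL/6 chow was the highest and C57BL/6 Western the lowest, little above the floor. On Western diet the signal was 1.54-fold higher than on chow in C3H (log2 0.63) and 2.31-fold lower in C57BL/6 (log2 -1.21). It was 2.13-fold lower in C3H on chow (log2 -1.09) and 1.67-fold higher on Western diet (log2 0.74). Responses differed by log2 1.83 between the strains, a size reached by 4.55% of the 8740 probe sets, with no test.

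The second Npr3 set shared these directions, with 143.8 on C3H Western, 118.0 on C3H chow, 25.3 on C57BL/6 Western and 148.5 on C57BL/6 chow. It was at least 1.78-fold lower with Western diet in C57BL/6. The third was above the floor only on C57BL/6 Western, at 180.0, against 37.0 on C3H Western, 6.28 on C3H chow and 5.48 on C57BL/6 chow, and so was at least 2.15-fold higher with Western diet in that strain. The sets thus do not give 1 diet direction for Npr3 in C57BL/6. Fibroblast markers, beside the brightest set, were highest on C57BL/6 chow too, with summed signals of 10 genes of 34917 on C3H Western, 18560 on C3H chow, 26482 on C57BL/6 Western and 72418 on C57BL/6 chow. Their part in the Npr3 values was not tested.

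**Figure D3:**
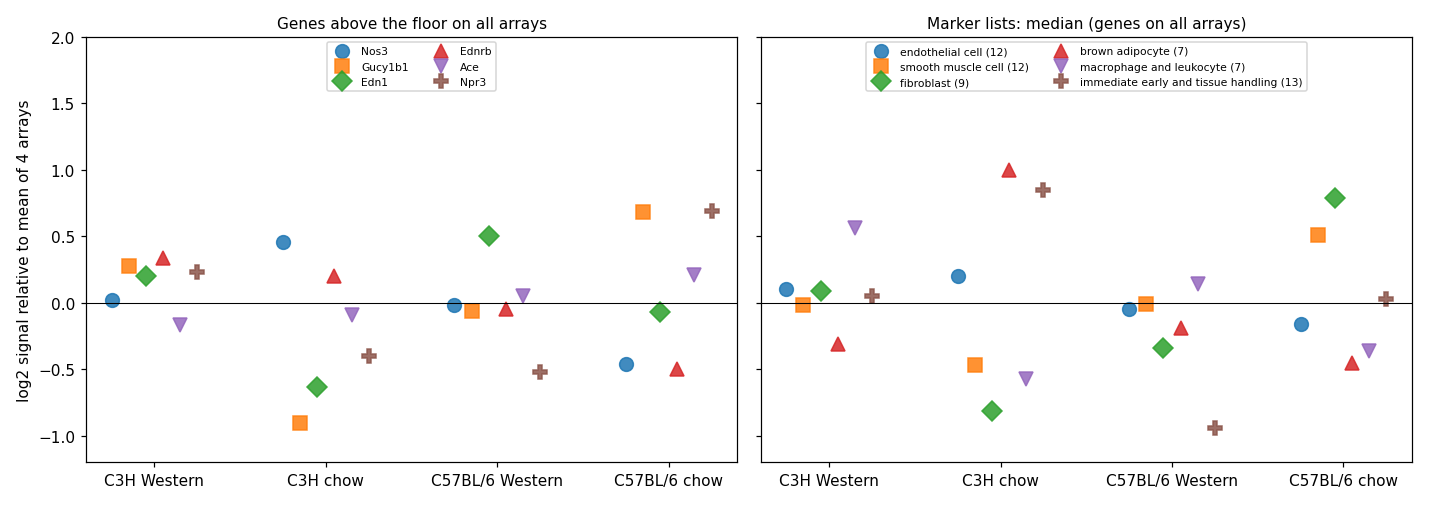
Log2 signal minus its mean over the 4 arrays, for the brightest probe set of the 6 genes above the floor on all arrays (left) and as the median of 6 marker lists (right, with the number of genes above the floor on all arrays). Points are offset sideways for clarity. Gucy1b1 and the smooth muscle list are both lowered on C3H chow (-0.90 and -0.47) and raised on C57BL/6 chow (0.68 and 0.51), and Nos3 and the endothelial list run the other way on chow.

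Counted together, 2 of 8 probe sets measured on both chow arrays were lower in C3H by 2-fold or more (Gucy1b1 and Npr3), where 8.94% of all 10522 measured probe sets were, and 0 were higher, where 8.2% were. On Western diet 0 of 9 were 2-fold lower or higher in C3H, against 4.24% lower and 4.17% higher among all. With Western diet 1 of 8 was at least 2-fold higher in C3H (Gucy1b1) and 0 lower, against 6.4% and 5.95%. In C57BL/6 1 of 9 was lower (Npr3) and 0 higher, against 3.97% and 3.79%. Counts of 0 to 2 are too few to be set apart from these shares. The median log2 differences were -0.31 for C3H over C57BL/6 on chow and -0.21 on Western diet, and 0.24 for Western over chow in C3H and 0.44 in C57BL/6, beside 0.03, 0.01, 0.0 and 0.0 over all probe sets. With only the brightest probe set of each gene these medians were -0.29, 0.19, 0.38 and 0.44. The strain median on Western diet thus changed sign with the choice of probe sets. Of the 6 probe sets that exceeded the floor on every array, 3 had the same diet direction in both strains (Edn1, Ednrb and Ace), against 45.1% of all 8740. The same strain direction on both diets was seen in 4 (Nos3, Edn1, Ednrb and Ace), against 52.3%.

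With bounds counted, 4 of 11 probe sets above the floor on either chow array were at least 2-fold lower in C3H (both Gucy1b1 sets, 1 of Ace and 1 of Npr3), where 10.8% of all were. On Western diet 2 of 12 were (Npr1 and 1 set of Npr3), against 5.98%. Western diet went with an at least 2-fold higher signal for 3 of 11 in C3H (both Gucy1b1 sets and 1 of Ace), against 8.55%, and for 2 of 12 in C57BL/6 (1 set of Ednrb and 1 of Npr3), against 5.84%. In the opposite direction, 0 of 11 on chow and 0 of 12 on Western diet were at least 2-fold higher in C3H. With Western diet 0 of 11 were at least 2-fold lower in C3H and 1 of 12 in C57BL/6 (Npr3). Shares of all probe sets were not counted for these. The Ace and Gucy1b1 bounds in both C3H chow comparisons come from the same 2 dim signals on that array, so these counts are not independent. They are small, include several sets of the same gene, and were not tested against the shares.

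The additive limma fit, with terms for strain and diet over all 4 arrays, tested 11 of the 13 probe sets. It took signals under the floor as measured, which touches the 5 probe sets above the floor on only 3 arrays. It called none of them for strain, where 57 of 14915 (0.382%) were called at an adjusted p of 0.05, and none for diet, where 0 of 14915 passed (0.0%). At an unadjusted p under 0.05 it had 1 of 11 for strain, the dimmer Ace set, where 873 of all (5.85%) did, and 0 of 11 for diet, where 367 (2.46%) did. The adjusted p-values of the 11 were 0.75 to 0.999 for strain and 1.0 for diet, and standard errors were log2 0.36 to 1.13. The interaction of strain and diet is the only residual of this fit. Its variance was drawn towards that of all probe sets (1 residual degree of freedom beside a prior of 17.3). The brightest Gucy1b1 and Npr3 sets and the Nos3 set, whose diet differences had opposite signs in the strains, are not described by its diet term. With 2 arrays on each side, the smallest two-sided p of an exact permutation test is 0.333.

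The wider pathways were counted by the brightest probe set of each gene. In the nitric oxide and cyclic GMP list, 20 of 25 genes had a probe set and 18 were above the floor somewhere. Of 10 measured on both chow arrays, 1 was at least 2-fold higher in C3H (Nosip, which binds the synthase, 2.09-fold) and 2 were lower, with a median of log2 0.05. A second Nosip set went the other way on chow and was under the floor on both C3H arrays, at 81.5 on C3H Western, 16.7 on C3H chow, 195.4 on C57BL/6 Western and 413.7 on C57BL/6 chow (log2 -2.31 on chow, by bound), so the sets give no 1 direction for Nosip. The lower genes were Ddah2, an enzyme assigned to the breakdown of a synthase inhibitor (3.47-fold), and Mrvi1, a substrate of the cyclic GMP-dependent kinase (2.31-fold). On Western diet 1 of 10 was higher in C3H (the phosphodiesterase Pde1a, 2.60-fold) and 0 lower (median log2 0.12). With Western diet the same Ddah2 (2.56-fold) and Mrvi1 (2.29-fold) were higher in C3H, 2 of 10, with 0 lower, and 0 of 10 differed in C57BL/6 (median log2 -0.13). Among all measured probe sets 8.2% were higher and 8.94% lower in C3H on chow, and 4.17% and 4.24% on Western diet. With Western diet 6.4% were higher and 5.95% lower in C3H, and 3.79% and 3.97% in C57BL/6. Counts of 0 to 2 of 10 genes are too few to be set apart from these shares. Gucy1a1, a gene of this list whose chow signal was lower in C3H by at least 10.5-fold, falls outside the count because its brighter set was under the floor there. Ddah2 had signals of 318.0 on C3H Western, 124.0 on C3H chow, 266.6 on C57BL/6 Western and 430.0 on C57BL/6 chow. The phosphodiesterase Pde3a, at 182.3 on C3H Western, 234.4 on C3H chow, 25.6 on C57BL/6 Western and 385.1 on C57BL/6 chow, was at least 4.61-fold lower with Western diet in C57BL/6. Nosip, Mrvi1, Pde1a and Pde3a, like Furin below, were named after their values were seen.

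Of the natriuretic peptide list, 8 of 8 genes had a probe set. Nppa, the precursor of atrial natriuretic peptide and so of the ligand of Npr1, had signals of 120.5 on C3H Western, 23.0 on C3H chow (under the floor), 487.3 on C57BL/6 Western and 547.7 on C57BL/6 chow. Both C3H arrays lay below both C57BL/6 arrays, by 4.04-fold on Western diet and at least 6.55-fold on chow. The limma fit, which took the dim C3H chow signal as measured, gave an adjusted p of 0.0713 for strain. Heart muscle markers, the usual company of Nppa, were at or under the floor for 8 of 10 genes on each C3H array and for 0 on each C57BL/6 array. Their summed signals were 589.1 on C3H Western, 619.2 on C3H chow, 14495 on C57BL/6 Western and 19265 on C57BL/6 chow, and their part in the Nppa value was not tested. Furin, a protease that processes peptide precursors, was 3.00-fold higher in C3H on chow, and in C3H it was 2.08-fold lower on Western diet than on chow. Mme, the protease neprilysin that degrades natriuretic peptides, was named after its values were seen, and its probe sets differed in size. With Western diet in C3H its dimmer set was lower by log2 -1.80 (100.1 on C3H Western against 348.6 on C3H chow), while its brighter set differed by log2 -0.57. By the brightest probe set of each gene, no other measured difference of this list reached 2-fold.

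In the endothelin list Ece1, which cuts the precursor into active endothelin 1, was the 1 gene measured on all arrays. With Western diet, against chow, its brighter set was 2.21-fold lower in C3H (log2 -1.15) and 1.30-fold higher in C57BL/6 (log2 0.38), while its other set was higher in both (log2 0.45 and 0.96). Of the renin-angiotensin list, 10 of 15 genes had a probe set, and 2 were above the floor on all arrays. Agtrap, a protein that binds the angiotensin type 1 receptor, was 2.36-fold lower in C3H on chow, the 1 difference of 2-fold among 3 measured. Among all measured probe sets 8.94% were 2-fold lower there, and 3 genes are too few to be set apart from that share. With Western diet Agtrap was at least 3.30-fold lower in C57BL/6. Cma1, a chymase of mast cells whose human form makes angiotensin II, was higher in C3H by at least 2.59-fold on chow and by at least 2.88-fold on Western diet. It gave 240.8 on C3H Western, 216.9 on C3H chow, 60.9 on C57BL/6 Western and 37.5 on C57BL/6 chow. No gene of these 4 lists passed limma for strain (lowest adjusted p 0.0713, Nppa) or for diet (lowest 1.0).

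Among 89 genes of the pathway and marker lists above the floor on all arrays, the closest pattern to each gene was measured by the root mean square difference of log2 signals, each centred on its mean over the 4 arrays. For Nos3 this was the brown adipocyte gene Cox7a1 (0.09), for Ednrb the adipocyte gene Adipoq (0.10), and for Gucy1b1 the pathway gene Ddah2 (0.10). For Ace it was the handling gene Zfp36 (0.12), for Npr3 the fibroblast gene Dpt (0.16), and for Edn1 the leukocyte gene Laptm5 (0.17). With 4 arrays such likeness is a description only.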

How the data were processed

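Linear intensities of 22690 probe sets on 4 arrays were used as deposited. Per the labels' protocols, biotin-labelled cRNA made from 8 ug of Trizol-extracted RNA was hybridized to a 1-colour Affymetrix array. No label names the software or background step. With 2% trimmed from each end, means of the arrays were 250.11 to 250.12, a common scale, while medians were 110.3 to 128.1. The 64 control probe sets were left out, and log2 values were quantile normalized (limma 3.58.1, R 4.3.3).

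Names came from the platform annotation, where 20380 probe sets name 1 gene, 691 several and 1555 are unnamed here. Entrez identifiers of 20351 matched RefSeq (GRCm38.p6, names only) and updated 0 symbols. Promoters came from RefSeq for 7 of the 8 genes. For lists, a gene is represented by its brightest probe set by mean log2.

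Differences were counted at 2-fold with both arrays above the floor. The limma fit (strain + diet, eBayes with a mean trend, Benjamini-Hochberg) used the 14915 probe sets that exceeded the floor on 2 or more arrays, with 1 residual degree of freedom beside a prior of 17.3, and was tested on simulated data. Named genes were all probe sets of the members, pathway genes at least 2-fold different the same way on both diets or in both strains (none where both differences were measured, and Nppa and Cma1 with bounds counted), the 1 gene per pathway list with the largest measured difference, and the closest pattern to each member. Members and lists were chosen with earlier results of these data known. Results were recomputed on deposited values, with equal array medians, with a floor at the 25th or the 60th percentile, with only the brightest probe set of each gene and, for limma, without a filter or without a mean trend. Python 3.11.15 was used for the rest.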

Additional observations from a re-analysis of the deposited data

Results flagged for a closer look

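Opposite directions in the strains or on the diets, each of at least 1.5-fold, where a probe set exceeded the floor on each array, drew attention to 2 genes. Nos3 also had opposite diet directions, log2 -0.45 in C3H and 0.44 in C57BL/6, but under that size. The brightest Npr3 set was log2 0.63 with Western diet in C3H and -1.21 in C57BL/6, and as a strain difference -1.09 on chow and 0.74 on Western diet. The brighter Gucy1b1 set was log2 1.18 with Western diet in C3H and -0.74 in C57BL/6. With 1 array per group the difference between these responses was not tested.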

How the results depend on the processing

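No paired analysis was possible because each group has 1 array and the labels give no replicate numbers, and for the same reason no array could be left out. The count of probe sets at least 2-fold different between the strains on chow, 2, became 1 on the deposited values, 1 when the floor was the 60th percentile and 3 (of 10 measured, in place of 8) when it was the 25th. With that lower floor the other counts became 1 (from 0) for strain on Western diet, 2 (from 1) for diet in C3H and 2 (from 1) for diet in C57BL/6, the last of which was 0 at the 60th percentile. The limma count for strain over all probe sets, 57, became 119 with no filter, 33 with 1 probe set per gene and 0 with no mean trend (where 804 had an unadjusted p under 0.05, and adjusted p was 0.63 or higher), and that for diet, 0, became 5 with no filter. None of the 13 probe sets of the listed genes was called under any limma setting that tested it, with a lowest adjusted p of 0.469 (strain, no filter). A changed floor alone cannot reverse a difference, so only the deposited values and the equal array medians could do so. Of 176 single differences recomputed, including those with only a changed floor, 173 kept their direction. Those that did not were near 0: Npr1 for strain on chow (log2 0.05 on the deposited values), Nos3 for strain on Western diet (-0.04 with equal array medians) and the brighter Ace set for diet in C3H (0.10 with equal array medians). The cause of these shifts was not tested. Without replicates, array noise was not measured, so no difference of any size could be tested against it. The spread between probe sets of 1 gene is not that noise.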
